A study of Mus musculus with 27 samples.

Results

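The chromosome ends described here are the 10-kb bins of the 19 mouse autosomes that lie between 3 and 8 Mb of the mm9 sequence, next to the centromere, and those in the last 5 Mb before the highest called nucleosome of each chromosome. A bin was kept when it held H3 reads in all 6 H3 libraries. Of 19000 bins chosen by position, 18380 were kept: 8960 pericentromeric bins of 9500 and 9420 distal bins of 9500. They were set against the other 218107 autosomal bins with H3 reads in all 6 libraries, called the interior here, of 236487 such bins in all. Of the 540 pericentromeric bins left out, 382 lie on chromosome 14, where only 118 remained.

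The study mapped nucleosomes in mouse embryonic fibroblasts (MEFs), in pre-iPSCs, an intermediate stage of reprogramming, and in induced pluripotent stem cells (iPSCs). The MEFs came from e13.5 embryos, hemizygous for both an Oct4-GFP transgene and a Rosa26 allele. The labels give a background of CBA/CaJ and C57BL/6J for all 3 cell types, and in the study's methods fathers of this background were crossed to 129Sv/Jae mothers. The reprogrammed cells arose from retroviral Yamanaka factors, and both pre-iPSCs and iPSCs were grown on feeder layers of MEFs. They go back to 2 clones of pre-iPSCs and the iPSCs that correspond to them, and the clone behind a library is not given in the sources used here. Chromatin was cut to single nucleosomes with micrococcal nuclease (MNase) and precipitated with antibodies to H3, H3K4me3, H3K27me3 (2 libraries per cell type each) and H3K9me3 (1 per cell type), and RNA-seq was done on 2 samples per cell type. The MNase treatment of MEFs differed from that of the other cells in the study's methods, so digestion and cell type cannot be told apart in any comparison of nucleosome maps with MEFs.

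Mouse autosomes have their centromere at one end. It is built of satellite repeats packed into heterochromatin with H3K9me3, a mark bound by HP1 proteins, and the unique sequence of the assembly begins beyond it. The opposite, distal end runs out in the telomere. H3K4me3 marks active and poised promoters, and H3K27me3 is laid down by Polycomb complexes on silent developmental genes. Only uniquely mapped reads were used by the study, so reads from repeats with many identical copies were left out.

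Sequences are shown for the strongest calls at both kinds of end, which are extremes and not typical of the bins. They were read from the mm9 genome on the plus strand, with CG dinucleotides in capitals. The nucleosomes listed as H3 are those with the highest smallest count over the 6 H3 libraries, and those listed as H3K9me3 are the strongest calls in the end bins with the highest H3K9me3.
Pericentromeric H3 nucleosome, chr11:3072338-3072484: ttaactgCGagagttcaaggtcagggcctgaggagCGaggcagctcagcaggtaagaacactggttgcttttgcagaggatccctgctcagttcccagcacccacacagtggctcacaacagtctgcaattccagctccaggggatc
Distal H3 nucleosome, chr2:181652067-181652213: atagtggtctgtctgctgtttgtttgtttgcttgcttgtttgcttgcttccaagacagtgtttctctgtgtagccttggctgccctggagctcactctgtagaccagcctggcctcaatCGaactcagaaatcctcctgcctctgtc
Pericentromeric H3K9me3 nucleosome, chr11:3093758-3093904: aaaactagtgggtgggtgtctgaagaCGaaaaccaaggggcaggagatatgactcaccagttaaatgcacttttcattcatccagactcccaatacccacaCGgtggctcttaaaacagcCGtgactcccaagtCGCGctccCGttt
Distal H3K9me3 nucleosome, chr9:123843400-123843546: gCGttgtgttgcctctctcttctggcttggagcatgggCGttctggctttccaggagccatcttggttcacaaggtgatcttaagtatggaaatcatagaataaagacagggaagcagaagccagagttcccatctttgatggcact

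The pericentromeric H3 nucleosome lies in Sfi1 outside its exons, and its call held 304 and 347 reads in MEF replicates 1 and 2, 731 and 223 for pre-iPSCs and 424 and 242 for iPSCs. The distal H3 nucleosome, in no annotated gene, held 114 and 140, 180 and 99, and 183 and 117 reads. CG dinucleotides number 2 and 1 in these sequences, and 6 in the pericentromeric H3K9me3 nucleosome. Of all adjacent windows of this length on the autosomes, 60.5% hold at least 1 CG and 2.19% at least 6.

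Distal bins held more G and C (mean 43.8%, against 41.6% in pericentromeric and 41.9% in interior bins) and more CG dinucleotides (9.68 per kb, against 8.02 and 8.49).

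Some libraries stand apart in ways that touch the results below. In all 4 ChIP libraries of iPSC replicate 1, the bins of chromosome 8 outside the ends lay 1.5- to 1.57-fold above those of the other chromosomes, against 1.00- to 1.14-fold in the other 17 libraries. In the RNA of iPSC replicate 1 the genes of chromosome 8 were higher than in replicate 2 by a median of 0.52 on the log2 scale, against 0.0099 for the tested genes of the other autosomes. Copy number was not measured, and results on chromosome 8 ends are given with this in mind. H3 reads of pre-iPSC replicate 1 followed GC content most closely of the 6 H3 libraries. Total reads in calls ranged from 67362868 to 108211816 for H3 and from 12007350 to 15222040 for the marks. The summed level of the 8 MEF markers was 8149 and 16307 FPKM (fragments scaled to transcript length and library size) for MEFs, 1268 and 1270 for pre-iPSCs and 414 and 598 for iPSCs, and fibroblast markers also mark feeder cells. The 8 iPSC markers summed to at most 0.904 FPKM in MEFs and to at least 632 FPKM in the other samples. Most of the sum in pre-iPSCs came from Pou5f1 (378 and 3184 FPKM) and Tdgf1 (228 and 333 FPKM). Pou5f1 encodes Oct4, a Yamanaka factor, and its FPKM was not split into transgene and endogenous RNA. Dppa5a (1.70 and 5.01 FPKM) and Utf1 (23.2 and 1.67 FPKM) were far lower in pre-iPSCs than in iPSCs. Nanog, Zfp42, Esrrb and Dppa3 were near 0 in pre-iPSCs as in MEFs.

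**Figure D1:**
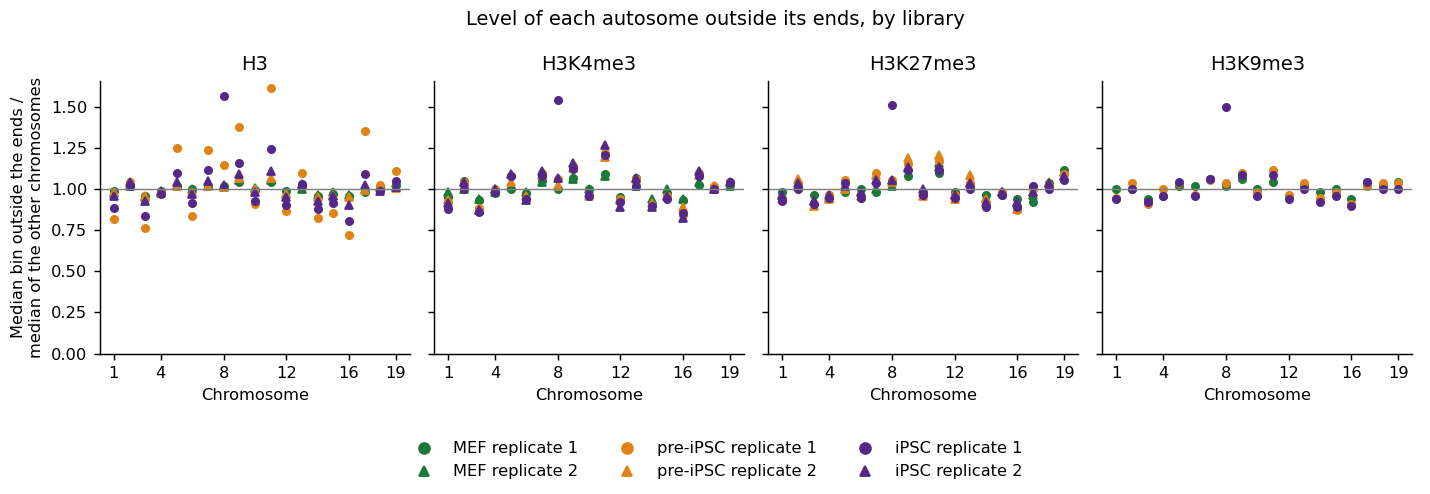
Level of the bins of each autosome outside the ends, as the fold of the chromosome's median over that of all other autosomes, for each ChIP library. Chromosome 8 stands at 1.5 to 1.57 in the iPSC replicate 1 libraries and at 1.00 to 1.14 in the others.

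To ask whether chromosome ends differ from the rest of the chromosomes, the median RPKM (reads scaled to bin length and library size) of end bins was divided by that of interior bins within each library. Pericentromeric bins lay below the interior for all 4 antibodies and distal bins above it, in every library. H3 in pericentromeric bins was at -0.10 and -0.10 for MEFs, -0.39 and -0.14 for pre-iPSCs and -0.21 and -0.17 for iPSCs on the log2 scale. The mean of -0.18 ± 0.11 (SD, n = 6) is 12.0% below the interior. In distal bins H3 was at 0.05 and 0.08 for MEFs, 0.86 and 0.09 for pre-iPSCs and 0.41 and 0.17 for iPSCs, with a mean of 0.28 ± 0.32 (SD, n = 6). Pre-iPSC replicate 1 thus stood far above its own replicate in distal H3, and without it the mean is 0.16.

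H3K4me3 was lower in pericentromeric bins, at -0.14 and -0.09 for MEFs, -0.15 and -0.20 for pre-iPSCs and -0.12 and -0.13 for iPSCs. Distal H3K4me3 was 0.06 and 0.11 in MEFs, below the 0.33 and 0.25 of pre-iPSCs and the 0.34 and 0.34 of iPSCs. MEFs did not overlap with the other cells in distal H3K4me3, a separation that was lost within GC classes (below). H3K27me3 was lower next to the centromere, at -0.24 and -0.22, -0.20 and -0.29, and -0.20 and -0.24 in the same order. In distal bins H3K27me3 was 0.03 and 0.12 for MEFs, 0.27 and 0.27 for pre-iPSCs and 0.22 and 0.21 for iPSCs, again without overlap between MEFs and the others. H3K9me3, with 1 library per cell type and no test, was at -0.12, -0.14 and -0.09 in pericentromeric and 0.06, 0.18 and 0.17 in distal bins of MEFs, pre-iPSCs and iPSCs.

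**Figure D2:**
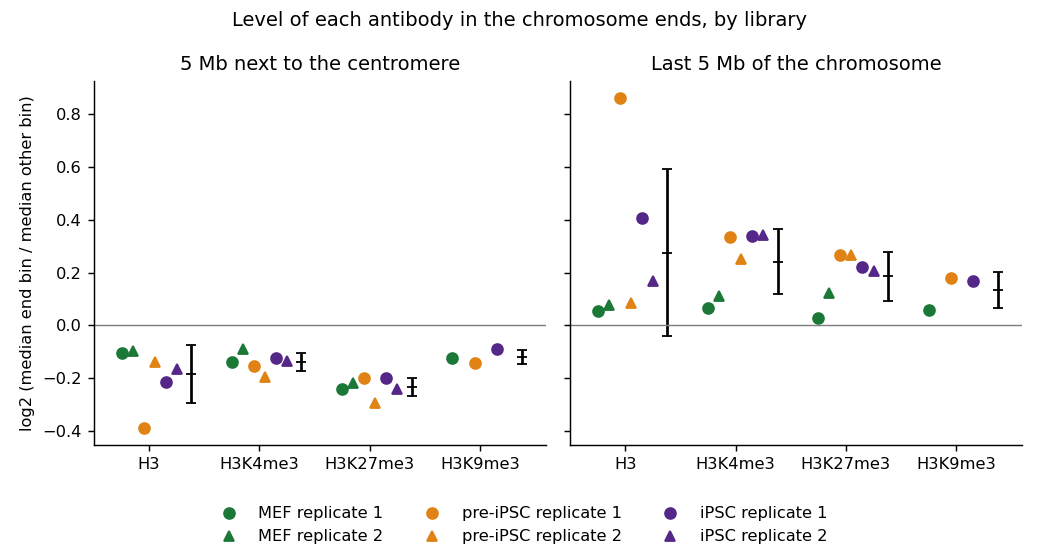
Level of pericentromeric and distal bins in each library, as log2 of the median RPKM over that of the interior, for the 4 antibodies. All pericentromeric points lie below 0 and all distal points above it, and the distal H3 point of pre-iPSC replicate 1 stands at 0.86.

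All 6 of these differences for H3, H3K4me3 and H3K27me3 had the same sign in 6 of 6 libraries, which gives p = 0.031 in the exact two-sided sign-flip permutation test, the smallest p that 6 libraries allow (adjusted p = 0.031 over the 6 tests). The libraries of 1 cell type are separate samples in the labels, and these p-values measure the spread between libraries, not between bins. The test takes the 6 libraries as independent, which is not known, since reprogrammed libraries may share a clone. The sign was not shared by all chromosomes. Depending on antibody and library, the pericentromeric end was lower in 11 to 14 of 19 chromosomes and the distal end higher in 11 to 15. GC content moved with the distal result. Each bin was also divided by the median of its GC class (1-percent steps), taken over all bins with the ends included. Distal over interior bins were then at 0.02 for H3 (exact permutation p = 0.031), -0.00 for H3K4me3 (p = 0.75) and 0.02 for H3K27me3 (p = 0.19). The distal difference of the marks was thus lost. It was also lost in the last 2 Mb alone, where distal bins were at 0.064 for H3K4me3 (exact permutation p = 0.062) and 0.0040 for H3K27me3 (p = 0.91), with H3 at 0.045 (p = 0.031). Within GC classes pericentromeric bins stayed lower in 6 of 6 libraries for H3, H3K4me3 and H3K27me3 (exact permutation p = 0.031). The means were -0.10 for H3, -0.07 for H3K4me3 and -0.20 for H3K27me3. Distal H3K4me3 within GC classes was at -0.03 and 0.00 for MEFs, 0.02 and 0.00 for pre-iPSCs and 0.00 and -0.02 for iPSCs. MEFs thus overlapped with the other cells there. For distal H3K27me3 the values were 0.00 and -0.03, 0.04 and 0.04, and 0.03 and 0.03. MEFs did not overlap with the other cells there, but medians of whole reads move in steps of about this size. No separation is therefore read from these values.

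Relative to H3, the marks differed from library to library. The difference of mark and H3 on the log2 scale lay between -0.24 and 0.18 in distal bins outside pre-iPSC replicate 1. In pre-iPSC replicate 1 it was -0.53 for H3K4me3, -0.60 for H3K27me3 and -0.68 for H3K9me3. In pericentromeric bins H3K27me3 lay below H3 in MEFs (-0.14 and -0.12), pre-iPSC replicate 2 (-0.15) and iPSC replicate 2 (-0.08), and the 3 marks of pre-iPSC replicate 1 lay 0.19 to 0.25 above it.

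The levels varied along the ends. The outermost 0.5 Mb was the lowest stretch of the distal end for H3 in every library, with -0.20 and -0.20 in MEFs, -0.46 in pre-iPSC replicate 1 and values between -0.14 and -0.46 over all 6. From 2.5 to 3.0 Mb inward, distal H3 had reached 0.11 and 0.16 for MEFs, 1.52 and 0.16 for pre-iPSCs and 0.65 and 0.27 for iPSCs. GC content took the same course, from a mean of 41.5% in the outermost 0.5 Mb of the distal end to 45.2% at 2.5 to 3.0 Mb. Its part in the profile was not tested step by step. Interior bins in the 0.5 Mb next to the inner borders of the ends had levels of the same sign. Distal H3 lay between 0.12 and 1.14 just outside, against 0.05 to 1.12 just inside. On the centromere side H3 lay between -0.43 and -0.13 outside and between -0.70 and -0.14 inside. Distal H3K27me3 was higher outside than inside in every library, so these levels are not limited to the ends.

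Next to the centromere, the first 0.5 Mb was low for every antibody. Its mean GC content was 42.3%, and the level within GC classes was not computed for this stretch. H3 there lay between -0.37 and -0.57, H3K4me3 between -0.29 and -0.47 and H3K9me3 between -0.33 and -0.41. H3K27me3 was lowest, at -1.06 and -0.88 in MEFs and between -0.55 and -0.75 in pre-iPSCs and iPSCs. MEFs and the reprogrammed cells did not overlap in this stretch. Of the 1-kb windows of pericentromeric bins, 4.06% held no H3 read in any library, against 2.36% of distal and 2.82% of interior windows. Without bins that hold such a window the pericentromeric levels kept their sign in every library.

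**Figure D3:**
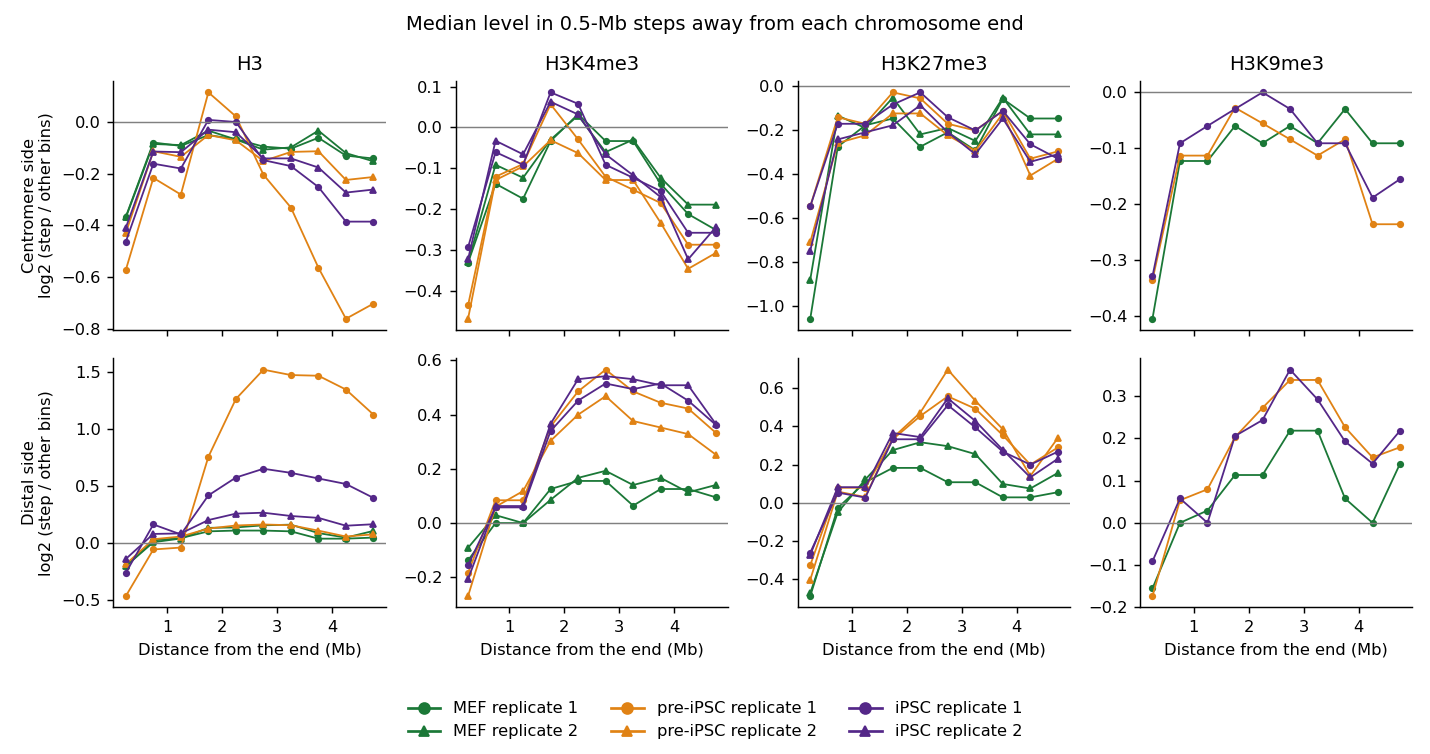
Level in steps of 0.5 Mb from the inner border of the centromeric gap (pericentromeric) or from the last call (distal), as log2 over the interior median, with 1 line per library. The 0.5 Mb nearest each end is low for all 4 antibodies, and distal H3 of pre-iPSC replicate 1 reaches 1.52.

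The 38 ends differed widely among themselves. The pericentromeric end of chromosome 14 stood apart, with H3 49.8-fold below the interior over its 118 bins (log2 -5.64 ± 0.41, SD, n = 6), and 38.9% of its 1-kb windows were empty. Among the other 37 ends, H3 was lowest next to the centromere of chromosome 3, at -0.43 and -0.41 for MEFs, -1.25 and -0.52 for pre-iPSCs and -0.90 and -0.59 for iPSCs. It was also low at the distal end of chromosome 18, with a mean of -0.54 ± 0.46. The distal ends of chromosomes 4, 11 and 7 were highest, with means of 0.79 ± 0.91, 0.74 ± 0.94 and 0.70 ± 0.75 (SD, n = 6). In each of these, pre-iPSC replicate 1 lay between 2.09 and 2.49 and the MEF replicates between 0.11 and 0.30.

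The marks followed a similar order, with pericentromeric chromosome 14 lowest for each (-5.56 for H3K4me3 and for H3K27me3). Among the other 37 ends, H3K4me3 was lowest in pericentromeric chromosome 3 (-0.62 ± 0.12) and distal chromosome 18 (-0.58 ± 0.22) and highest in distal chromosomes 11, 4 and 15 (0.71 ± 0.30, 0.65 ± 0.30 and 0.64 ± 0.20, SD, n = 6). H3K27me3 was lowest in pericentromeric chromosomes 9 and 3 (-0.67 ± 0.08 and -0.66 ± 0.12) and highest in distal chromosomes 7, 4 and 16 (0.68 ± 0.13, 0.67 ± 0.42 and 0.60 ± 0.12). H3K9me3 was highest in distal chromosomes 4, 8 and 7, with 0.49, 0.61 and 0.63 in MEFs, pre-iPSCs and iPSCs at chromosome 4. The distal end of chromosome 8 is among these through iPSC replicate 1, where it was at 0.79, against 0.17 in MEFs and 0.32 in pre-iPSCs.

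Levels of the ends rose with their GC content, to a differing degree between libraries. Across the 38 ends, which share their libraries, Spearman's rho between mean GC content and level lay between 0.43 (H3K27me3 in MEF replicate 1) and 0.94 (H3 in pre-iPSC replicate 1). Distal chromosome 4 has 50.01% G and C and distal chromosome 11 49.7%, while distal chromosomes 17 and 18 have 37.5% and 37.6%. With each bin divided by the median of its GC class, distal chromosome 4 came to 0.07 over the interior for H3, -0.04 for H3K4me3 and 0.02 for H3K27me3, and to 0.22 for H3K9me3. Some pericentromeric ends stayed low. Chromosome 7 was at -0.40 for H3, -0.30 for H3K4me3, -0.83 for H3K27me3 and -0.37 for H3K9me3 in its GC class, and H3K27me3 was at -0.49, -0.42 and -0.34 on chromosomes 19, 9 and 3.

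**Figure D4:**
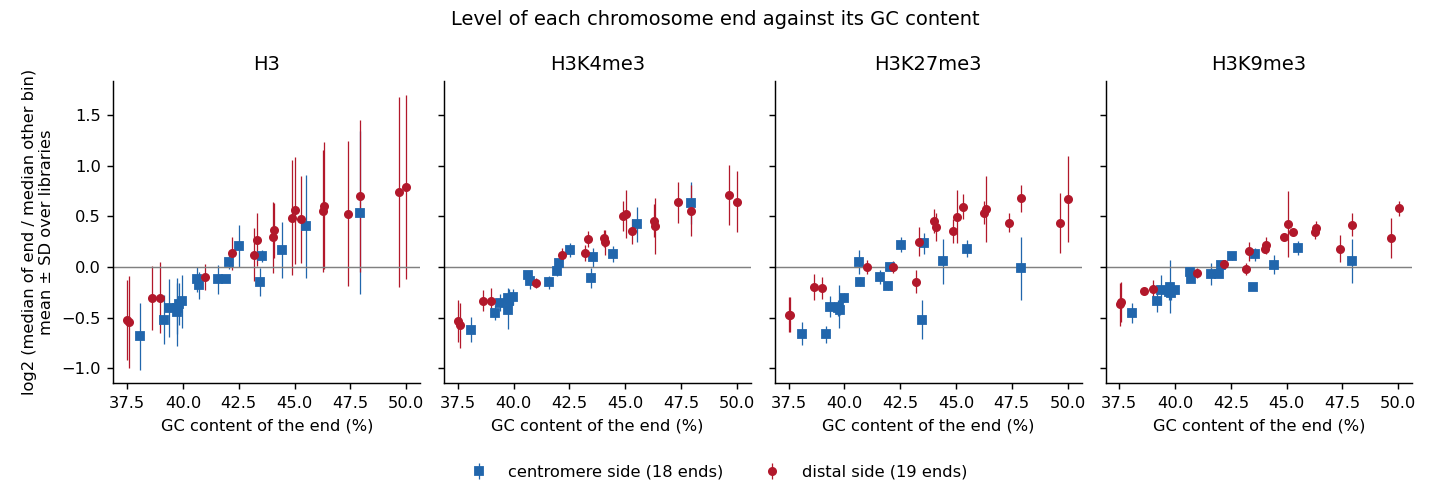
Mean level of 37 of the 38 ends over the libraries of an antibody (log2 over the interior median, vertical axis) against mean GC content in percent (horizontal axis). Levels rise with GC content from the distal ends of chromosomes 17 and 18 to those of chromosomes 11 and 4. Pericentromeric chromosome 14, which lies far below the others, is not drawn.

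To find which end bins differ between the cell types, counts per bin were tested with edgeR's quasi-likelihood method over all autosomal bins. The threshold was a Benjamini-Hochberg adjusted p below 0.05, and GC content was not a term of the fits. For pre-iPSCs against MEFs, H3K27me3 was higher in 1447 and lower in 212 of 9246 distal bins (17.9% called) and higher in 561 and lower in 227 of 8511 pericentromeric bins (9.26%). Over all bins 11.6% were called, 8.82% higher and 2.76% lower. The median log2 difference was 0.13 in distal bins, -0.05 in pericentromeric bins and -0.01 over all bins tested. iPSCs against MEFs, which share the MEF libraries with the former comparison, gave 1270 higher and 234 lower distal bins (16.3%) and 644 and 257 pericentromeric bins (10.6%), against 11.4% of all bins (8.44% higher and 2.92% lower). The distal share thus lay above the background and the pericentromeric share slightly below it in both comparisons.

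H3K4me3 gave the same order. For pre-iPSCs against MEFs 554 distal bins were higher and 129 lower of 9259 (7.38%), and 206 pericentromeric bins were higher and 176 lower of 8542 (4.47%), against 5% of all bins (3.19% higher and 1.81% lower). For iPSCs against MEFs 1226 distal bins were higher and 354 lower (17.1%), and 605 pericentromeric bins were higher and 325 lower (10.9%), against 12.6% of all bins (7.6% higher and 5% lower). The median log2 difference in distal bins was 0.11 and 0.13, against -0.01 and -0.02 over all bins. Few bins differed between iPSCs and pre-iPSCs. H3K4me3 was higher in 7 pericentromeric and 4 distal bins and lower in none by edgeR (0.0357% of all bins called, 0.0323% higher and 0.00344% lower), and H3K27me3 was called in 9 and 12 bins (0.126% of all, 0.0823% higher and 0.0435% lower). DESeq2 called 0 and 0 of these bins for H3K4me3 and 0 and 2 for H3K27me3. At an unadjusted p below 0.05, edgeR counted H3K4me3 higher in iPSCs in 696 and lower in 250 of 8542 pericentromeric bins and higher in 504 and lower in 289 of 9259 distal bins, against 11656 and 8571 of all 232269 bins.

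DESeq2 called fewer bins and a larger share of them higher. Of the bins to which it gave an adjusted p, it called H3K4me3 in 10.5% of distal, 8.56% of pericentromeric and 7.56% of all bins for iPSCs against MEFs. For pre-iPSCs against MEFs the shares were 4.63%, 4.18% and 3.52%, so the pericentromeric share of these bins lay above that of all. They are shares of 5002, 2465 and 88168 bins for iPSCs and of 4295, 1916 and 70155 bins for pre-iPSCs. By edgeR 9259, 8542 and 232269 bins were tested, so the shares of edgeR and DESeq2 are not over the same bins. For H3K27me3 in pre-iPSCs against MEFs the shares were 7.18%, 2.26% and 3.45%. For iPSCs against MEFs it called H3K4me3 higher in 484 and lower in 40 distal bins (92.4% of its calls higher, against 77.6% by edgeR) and higher in 152 and lower in 59 pericentromeric bins (72.0% against 65.1%). For pre-iPSCs against MEFs it called 51 and 29 pericentromeric bins (63.8% higher, against 53.9%) and, for H3K27me3, 123 and 16 pericentromeric bins (88.5% against 71.2%). Fewer distal bins were called without each of the libraries named next. Such a fit leaves 1 library in a group, so the fall does not show whether a single library carried the calls. Without MEF replicate 1, distal bins called for H3K4me3 in pre-iPSCs against MEFs fell in number to 87, and without pre-iPSC replicate 1 or 2 or MEF replicate 2 to 230, 111 and 416. For H3K27me3 in the same comparison, 622 distal bins were called without MEF replicate 1, 583 without pre-iPSC replicate 1 and 779 without pre-iPSC replicate 2.

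H3 itself gave no called bin in any comparison, by edgeR or by DESeq2 (0% of all 235470 bins). At an unadjusted p below 0.05, edgeR counted 248 pericentromeric bins (210 higher) and 356 distal bins (325 higher) for pre-iPSCs against MEFs, of 7046 in all, and DESeq2 1005 and 1442 of 27617 in all. For iPSCs against MEFs edgeR counted 30 and 69 of 1136 in all, and for iPSCs against pre-iPSCs 28 and 16 of 471. End bins were called by edgeR for pre-iPSCs against MEFs once pre-iPSC replicate 2 was left out of the fit. That fit sets pre-iPSC replicate 1 alone, the library that stands apart in distal H3, against MEFs and assumes that it varies like the other groups.

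The called bins were unevenly spread along the distal ends. H3K27me3 was higher in pre-iPSCs than in MEFs in 8.88% of distal bins of the outermost 1 Mb and in 23.0% of those between 3 and 4 Mb. H3K4me3 was higher in iPSCs than in MEFs in 6.55% of bins of the outermost 1 Mb and in 16.4% between 2 and 3 Mb. The distal end of chromosome 4 held more of the former than any other distal end, with H3K27me3 higher in 251 and lower in 5 of 497 bins, and H3K4me3 there was higher in iPSCs in 198 and lower in 2 of 498 bins. At the GC-poor distal ends of chromosomes 17 and 18 H3K4me3 was higher in iPSCs in 0 and 1 bins and lower in 61 and 62. Without chromosome 8, H3K4me3 was higher in 1089 and lower in 346 distal bins in iPSCs against MEFs.

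Sums over each 5-Mb end were tested as well, at lower counting error. The share of H3K4me3 calls that were higher was lower at this scale, next to the centromere and over all features. For pre-iPSCs against MEFs 53.9% of called pericentromeric bins but 20% of called pericentromeric ends were higher, against 63.8% and 43.7% of all called bins and segments. For iPSCs against MEFs these shares were 65.1% and 37.5%, against 60.3% and 46.5%. For pre-iPSCs against MEFs H3K4me3 was higher in 9 and lower in 4 of the 19 distal ends, and higher in 2 and lower in 8 of the 19 pericentromeric ends, against 56.9% of all 490 segments called (24.9% higher and 32% lower). At distal chromosome 4 H3K4me3 in RPM, scaled to the autosomal reads, was 2660 and 2767 for MEFs, 3592 and 3235 for pre-iPSCs and 3795 and 3707 for iPSCs, so that MEFs lay below all others. On the log2 scale it rose by 0.34 in pre-iPSCs and by 0.51 in iPSCs, and distal chromosomes 2 (0.36 in pre-iPSCs) and 11 (0.30 and 0.41) rose with it. Distal chromosome 18 fell by 0.37 in pre-iPSCs (SE 0.06, edgeR adjusted p = 0.0043) and by 0.42 in iPSCs, and distal chromosomes 17 and 3 fell by 0.38 and 0.29 in iPSCs. Next to the centromere, chromosomes 9 and 3 fell by 0.32 and 0.29 in pre-iPSCs.

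In iPSCs against MEFs H3K4me3 was higher in 10 and lower in 4 distal ends, and higher in 3 and lower in 5 pericentromeric ends, against 67.1% of all segments. The distal end of chromosome 8 was among the higher ones (0.39, SE 0.13), with 2703 and 2538 RPM for MEFs, 2757 and 2879 for pre-iPSCs and 3825 and 2841 for iPSCs. The value of iPSC replicate 2, which lacks the excess over chromosome 8, lay between those of the pre-iPSC replicates, and the call was lost without either MEF or either pre-iPSC library. H3K27me3 was higher in 5 and lower in 2 distal ends in pre-iPSCs against MEFs and called in 2 and 2 pericentromeric ends, against 25.9% of all segments (9.8% higher and 16.1% lower). Distal chromosomes 4, 2 and 1 rose by 0.55, 0.43 and 0.27, and distal chromosomes 17 and 18 fell by 0.34 and 0.32. None of these H3K27me3 calls was kept with the replicate number as a block (0 distal and 0 pericentromeric ends called) or without pre-iPSC replicate 1 or 2 (0 and 0). No end was called for H3K27me3 in iPSCs against MEFs by edgeR (0% of segments, 7 distal and 4 pericentromeric ends and 119 of all 490 segments at an unadjusted p below 0.05), while DESeq2 called 4 and 2 ends and 56 of all segments.

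Zic2 and Zic5, neighbouring zinc finger factors of neural development on distal chromosome 14, lost the mark. Both bins also hold exons of the lincRNA 2610035F20Rik. The bin of Zic5 (chr14:122860001-122870000) held 167 and 165 H3K27me3 reads for MEFs, 27 and 25 for pre-iPSCs and 34 and 23 for iPSCs. It fell by 2.58 (SE 0.21, edgeR adjusted p = 2.7e-06) in pre-iPSCs and by 2.46 in iPSCs on the log2 scale. In the bin of Zic2 (chr14:122870001-122880000) the counts were 149 and 166, 33 and 24, and 51 and 36, a fall of 2.37 in pre-iPSCs. Their H3K4me3 was 128 and 105 reads in MEFs and 195 and 170 in pre-iPSCs for Zic5, and MEFs had fewer reads than all other libraries in both bins. As a multiple of the interior median, MEF replicate 1 was at 2.91 in the Zic5 bin, above iPSC replicate 1 at 2.76.

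H3K27me3 rose within several genes. Timp2, an inhibitor of matrix metalloproteinases on distal chromosome 11, held 17 and 19 H3K27me3 reads for MEFs, 105 and 106 for pre-iPSCs and 110 and 102 for iPSCs in an exonic bin (chr11:118180001-118190000). The rise was 2.63 (SE 0.23, edgeR adjusted p = 2.7e-06). Farp1, a FERM domain exchange factor on distal chromosome 14, rose in both of its named bins (chr14:121640001-121650000 by 2.67 and chr14:121670001-121680000 by 2.67 in pre-iPSCs). In iPSCs against MEFs the bin of Lrp1, an endocytic receptor on distal chromosome 10 (chr10:127050001-127060000), rose by 3.06 (SE 0.34), with 14 and 7 reads for MEFs, 41 and 23 for pre-iPSCs and 97 and 71 for iPSCs. Ehbp1l1 on pericentromeric chromosome 19 (chr19:5710001-5720000) had 14 and 16, 48 and 33, and 102 and 83 reads, a rise of 2.69. In these 5 bins the reads of MEFs lay below those of every other library. H3 of pre-iPSC replicate 1 was 4.62- to 8.02-fold the interior median in the same bins, and 0.65- to 1.30-fold in pre-iPSC replicate 2.

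Between iPSCs and pre-iPSCs, H3K27me3 rose over Hoxc6, a homeobox factor of body patterning on distal chromosome 15 (chr15:102830001-102840000). The bin held 40 and 49 reads for MEFs, 51 and 58 for pre-iPSCs and 159 and 142 for iPSCs, a rise of 1.45 (SE 0.18, edgeR adjusted p = 0.0022) that was lost without either pre-iPSC library. Osmr, the oncostatin M receptor (1.54), and Baiap2, an actin adaptor (1.5), rose likewise, and Adcy1, an adenylyl cyclase (-1.07), Mobp, a myelin protein (-0.98), and Rapgef5, a Rap exchange factor (-0.97), fell. DESeq2 called 2 end bins of this comparison, and leaving out single libraries left 0 to 21 distal bins.

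A pair of adjacent pericentromeric bins on chromosome 12, in no annotated gene, exchanged their H3K4me3. The bin chr12:3100001-3110000 held 137 and 144 reads for MEFs, 16 and 16 for pre-iPSCs and 17 and 13 for iPSCs, a fall of 3.16 (SE 0.25, edgeR adjusted p = 1.0e-10) in pre-iPSCs. The next bin, chr12:3110001-3120000, held 14 and 16, 92 and 79, and 80 and 77 reads, a rise of 2.46 (SE 0.27, adjusted p = 2.0e-06). H3K9me3 moved in the same way, from 341 reads in MEFs to 11 and 17 in pre-iPSCs and iPSCs in the former bin and from 21 to 84 and 77 in the latter. H3 did not follow these marks, with 0.23 and 0.24 of the interior median for MEFs, 0.32 and 0.16 for pre-iPSCs and 0.73 and 0.63 for iPSCs in the former bin, and 0.93 and 0.79, 1.06 and 0.64, and 0.26 and 0.23 in the latter. The cause was not tested.

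Other H3K4me3 changes lay in or near genes. An exonic bin of Col1a2, the alpha 2 chain of type I collagen, 1.46 Mb into pericentromeric chromosome 6 (chr6:4460001-4470000), held 195 and 132 reads for MEFs, 40 and 43 for pre-iPSCs and 64 and 46 for iPSCs, a fall of 2.02 (SE 0.26, edgeR adjusted p = 4.0e-05) in pre-iPSCs. A bin within Zfhx4, a zinc finger homeobox gene, that holds an exon of the lincRNA 2700069I18Rik (chr3:5220001-5230000) fell by 1.77 in iPSCs against MEFs, and an exonic bin of Tnrc6c, a factor of silencing by miRNAs, and Tmc6 (chr11:117620001-117630000) rose by 2.02 from 25 and 31 reads in MEFs to 116 and 112 in iPSCs. On pericentromeric chromosome 16 (chr16:3650001-3660000) H3K4me3 was 69 and 58 for MEFs, 75 and 42 for pre-iPSCs and 238 and 134 for iPSCs, and H3K9me3, with no test, was higher there in iPSCs as well, at 241 reads against 76 and 96 in MEFs and pre-iPSCs. Some named bins rest on 1 library. At chr9:123830001-123840000, near the distal end of chromosome 9, MEF replicate 2 held 11 H3K4me3 reads and replicate 1 held 105, with H3 at 0.20 and 2.16 of the interior median, and the rise of 2.18 in iPSCs against MEFs was not called by DESeq2.

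The miR-290 cluster, a group of miRNAs known for their high level in mouse pluripotent cells, lies 0.21 Mb into the pericentromeric end of chromosome 7. Its mature miRNAs were taken from RefSeq (GRCm38.p6) and matched to mm9 by sequence on chromosome 7, and some of those matched are shown, which share the seed AAGUGCU or differ from it in its last base, with the seed (bases 2 to 8) in capitals.
mmu-miR-290a-3p, chr7:3218675-3218698: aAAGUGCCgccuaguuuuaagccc
mmu-miR-291a-3p, chr7:3218969-3218990: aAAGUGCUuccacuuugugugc
mmu-miR-291b-3p, chr7:3219530-3219551: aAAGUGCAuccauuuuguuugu
mmu-miR-294-3p, chr7:3220692-3220713: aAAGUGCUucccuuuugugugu
mmu-miR-295-3p, chr7:3220816-3220838: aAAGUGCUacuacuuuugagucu

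miR-291a-3p, miR-294-3p and miR-295-3p share the seed AAGUGCU. The cluster spans 2 bins. Mir293, Mir294 and Mir295 lie in the more distal one (chr7:3220001-3230000), where H3K27me3 was 74 and 102 reads for MEFs, 50 and 52 for pre-iPSCs and 35 and 29 for iPSCs. The bin of Mir290, Mir291a, Mir291b and Mir292 (chr7:3210001-3220000) held 95 and 104 H3K27me3 reads for MEFs, 38 and 18 for pre-iPSCs and 28 and 15 for iPSCs. MEFs lay above all other libraries, and the mark fell by 1.74 in pre-iPSCs and fell by 2.13 (SE 0.28, edgeR adjusted p = 7.9e-05) in iPSCs against MEFs. H3K4me3 in the same bin was 56 and 67 reads for MEFs, 108 and 76 for pre-iPSCs and 117 and 101 for iPSCs. It rose by 0.82 in iPSCs (adjusted p = 0.022), while pre-iPSCs differed from MEFs by 0.54 (adjusted p = 0.18).
Nearby bins are given as a description. Of the 11 adjacent bins around it, chosen after the values were seen, 7 were called lower in iPSCs than in MEFs, in an unbroken row from chr7:3180001 on (2.92% of all bins were called lower). The change in this row lay between -0.75 and -2.13. H3K4me3 was called higher in 2 of the 11 bins, at chr7:3200001 (0.72) and chr7:3210001, against 7.6% of all bins. AU018091, a gene whose start lies at chr7:3169204 on the minus strand, had 0.32 and 0.04 FPKM for MEFs, 44.2 and 51.3 for pre-iPSCs and 29.2 and 52.5 for iPSCs. It rose by 5.37 (SE 0.40, limma adjusted p = 0.00089) in pre-iPSCs on the log2(FPKM + 1) scale. The RNA-seq tables do not measure the mature miRNAs.

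**Figure D5:**
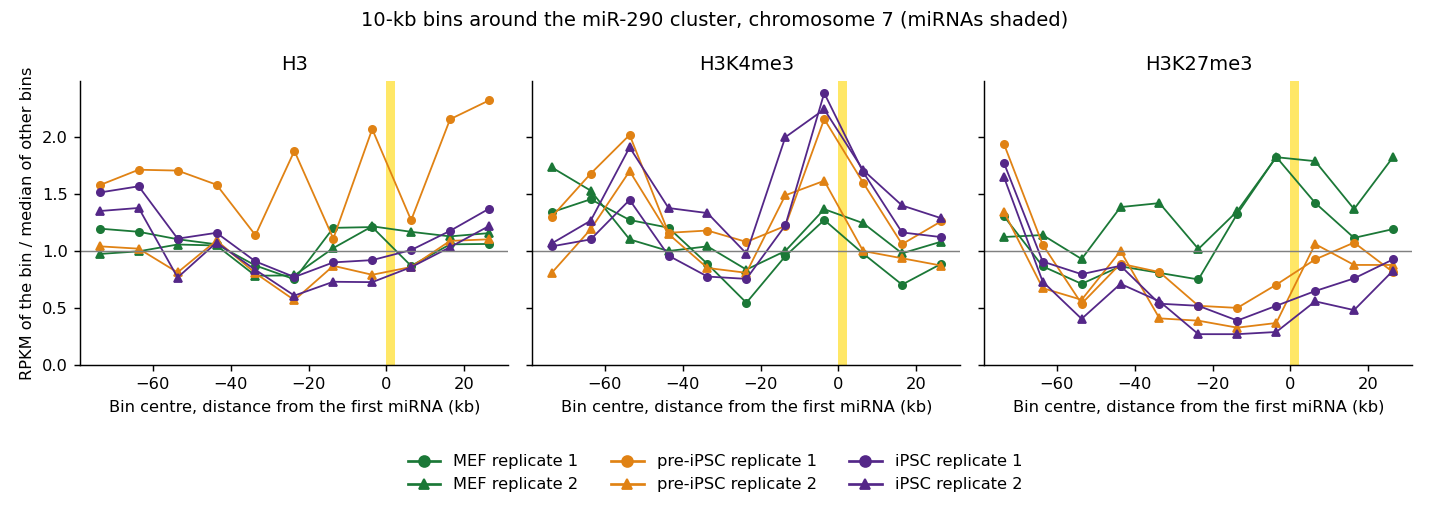
Level of H3, H3K4me3 and H3K27me3 in 11 adjacent 10-kb bins around the miR-290 cluster on chromosome 7, with 1 line per library. The vertical axis is the RPKM of the bin over the interior median, and the horizontal axis the bin centre in kb from the first miRNA. In the bin of Mir290, Mir291a, Mir291b and Mir292 the MEF points of H3K27me3 stand for 95 and 104 reads and all others for 15 to 38.

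H3K9me3, with 1 library per cell type, was highest next to the centromeres of chromosomes 11 and 9. In the bin chr11:3090001-3100000, which overlaps Sfi1 and Drg1, it was 73.9-fold the interior median for MEFs, 33.2-fold for pre-iPSCs and 50.9-fold for iPSCs. H3 was 19.8- to 29.9-fold there in the 6 H3 libraries and H3K4me3 and H3K27me3 stood above the interior as well, so all antibodies were high. The bin chr9:3020001-3030000 was at 67.3-fold for MEFs, 11.7-fold for pre-iPSCs and 13.53-fold for iPSCs, with H3 between 5.10- and 7.61-fold. The highest distal bin lies 0.23 Mb from the end of chromosome 9 (chr9:123840001-123850000), at 1.14-, 6.68- and 18.2-fold in MEFs, pre-iPSCs and iPSCs, and holds the distal H3K9me3 nucleosome shown above. H3 in that bin was 4.58- and 1.11-fold in the MEF replicates, which thus differed from each other.

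Bins with H3K9me3 at least 3-fold above the interior median were more frequent next to the centromere. They numbered 18 of 8960 pericentromeric bins for MEFs (0.201%), 19 for pre-iPSCs (0.212%) and 27 for iPSCs (0.301%). In distal bins they numbered 5 (0.0531%), 4 (0.0425%) and 18 (0.191%), and in the interior 0.0477%, 0.0307% and 0.118%. Of the pericentromeric bins 14, 11 and 12 were also at least 3-fold up for H3 in both libraries of the cell type. In the interior this held for 12 of 104, 21 of 67 and 25 of 257 such bins. Many of the pericentromeric bins were thus high for H3 as well as for H3K9me3. Changes of at least 1.5-fold between cell types were counted with no replicate. For pre-iPSCs against MEFs, 892 pericentromeric bins were higher and 850 lower (19.4%), and 1154 distal bins were higher and 636 lower. Over all bins 17.9% changed, 9.72% higher and 8.14% lower. For iPSCs against pre-iPSCs the pericentromeric and distal shares were 17.7% (12.2% higher and 5.42% lower) and 12.0%. Of all bins 12.5% changed there (6.99% higher and 5.52% lower). For iPSCs against MEFs the shares were 22.8% and 24.4%, against 21.5%. Without chromosome 8 the iPSC against pre-iPSC shares were 16.2% and 10.9%, against 11.1%.

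The distal ends hold 1053 gene starts (11.2 per Mb), the pericentromeric ends 745 (8.31 per Mb) and the interior 17307 (7.94 per Mb). Single ends differ widely, from 0.8 per Mb in distal chromosome 17 to 31.4 per Mb in distal chromosome 10, and pericentromeric chromosomes 7 and 19 hold 121 and 174 of the 745 starts. The median gene was at 1.75 to 2.49 FPKM in distal ends, 2.69 to 3.54 FPKM in pericentromeric ends and 1.33 to 1.91 FPKM in the interior over the 6 RNA libraries. Genes were tested with limma on log2(FPKM + 1) and called where the adjusted p was under 0.05 and the log2 change was 1 or more in size. In these bulk samples, fewer expressing cells and less RNA per cell cannot be told apart, and FPKM does not separate alleles.

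For pre-iPSCs against MEFs, 54 distal genes rose and 60 fell of 674 tested, and 38 pericentromeric genes rose and 41 fell of 533, against 16.4% of all genes called (7.39% higher and 9% lower). For iPSCs against MEFs 67 distal genes rose and 104 fell, and 54 pericentromeric genes rose and 75 fell, against 25.9% (10.3% and 15.5%). For iPSCs against pre-iPSCs 18 and 36 distal and 16 and 26 pericentromeric genes were called, against 8.62%. These counts depend on the libraries in the fit. In each comparison fewer distal and fewer pericentromeric genes were called when any pre-iPSC or iPSC library of the groups compared was left out. Such a fit leaves 1 library in a group and estimates the spread from fewer libraries. The fall in calls therefore does not show whether a single library carried them.

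Col1a2 on pericentromeric chromosome 6 had 1206 and 1761 FPKM for MEFs, 56.3 and 19.5 for pre-iPSCs and 41.4 and 54.8 for iPSCs. It fell by 5.41 (SE 0.56, limma adjusted p = 0.0018) and 4.91. In the bin of its start H3K4me3 fell from 216 and 174 reads in MEFs to 76 and 64 in pre-iPSCs (log2 -1.52), and H3K27me3 rose from 25 and 39 to 75 and 71 (1.28). Igf2, a growth factor gene expressed from the paternal allele on distal chromosome 7, had 680 and 582, 72.7 and 13.8, and 64.4 and 32.9 FPKM, falls of 4.25 and 3.74. Neither mark was called in its start bin.

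Nrp1, a receptor of semaphorins and VEGF on distal chromosome 8, had 73.4 and 54.8 FPKM in MEFs and at most 3.38 in the other samples. It fell by 4.50 and 4.73, and H3K27me3 in its start bin rose from 24 and 24 reads in MEFs to 106 and 99 for pre-iPSCs and 128 and 120 for iPSCs (2.18 and 2.44). Wls, needed for Wnt secretion, fell by 3.79 in pre-iPSCs and fell by 3.86 in iPSCs against MEFs. Aebp1, a matrix protein, had 134 and 171, 26.5 and 7.11, and 8.05 and 10.8 FPKM, a fall of 3.88 in iPSCs, and its start bin gained H3K27me3 (16 and 38, 119 and 109, and 132 and 110 reads). Lsp1, an actin-binding protein, fell by 3.74 in pre-iPSCs. The start bins of Wls and Lsp1 gained H3K27me3 as well, by 1.28 and 1.54 in pre-iPSCs. Cbr2, a carbonyl reductase, fell by 4.31 in iPSCs against MEFs, but its MEF values were 3.28 and 90.5 FPKM.

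Some genes were high in both reprogrammed stages. Fgf4, a growth factor of early embryonic cells on distal chromosome 7, was listed at 0 in both MEF samples, at 23.1 and 13.9 FPKM in pre-iPSCs and at 54.8 and 56.3 in iPSCs. It rose by 4.24 and 5.82 on the log2(FPKM + 1) scale. Its start bin lost H3K27me3, from 154 and 166 reads in MEFs to 65 and 73 for pre-iPSCs and 41 and 45 for iPSCs (log2 -1.12 and -1.82), and gained H3K4me3 (1.26 and 1.10). Smagp, a small transmembrane glycoprotein, rose by 5.76 and 4.64 with a loss of H3K27me3 of -1.13 and -1.34. Ndufa4l2, a mitochondrial protein, rose by 4.81 in iPSCs, with 9.14 and 63.4 FPKM in pre-iPSCs and 40.2 and 38.3 in iPSCs.

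Several genes were higher in both pre-iPSC samples than in the other 4. Tac2, which encodes neurokinin B, was listed at 0 in both MEF samples, at 62.1 and 179 FPKM in pre-iPSCs and at 0.44 and 0 in iPSCs. It rose by 6.73 (SE 0.53, limma adjusted p = 0.00094) and fell by 6.47 again. In its start bin H3K4me3 rose (1.02) and H3K27me3 fell (-1.04) in pre-iPSCs, and no change was called for either mark between iPSCs and pre-iPSCs. Lrmp, an endoplasmic reticulum protein of lymphoid cells, Myo1g, a myosin of blood cells, Ucn3, a urocortin, and Ifitm6, an interferon-induced membrane protein, rose by 5.10, 3.78, 3.29 and 3.30 in pre-iPSCs, and changed by -3.84, -3.14, -3.29 and -3.30 from there to iPSCs. Neither mark was called in the start bins of these 4 genes. Gm6792 and 1190003J15Rik rose by 5.52 and 6.15 and fell by 3.11 and 2.85. In iPSCs these and Lrmp remained above MEFs, by 2.41 for Gm6792, 3.29 for 1190003J15Rik and 1.26 for Lrmp.

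Other genes were near 0 in MEFs and pre-iPSCs and rose in iPSCs. Tex19.1, a gene of germ cells and pluripotent cells in the study's pluripotency list, was listed at 0 in both MEF samples, at 0.098 and 0.78 FPKM in pre-iPSCs and at 24.98 and 22.6 in iPSCs. It rose by 4.15 (SE 0.38, limma adjusted p = 0.0017) between pre-iPSCs and iPSCs. Its start bin had 42 and 57, 76 and 50, and 91 and 77 H3K4me3 reads, with a rise of 0.76 in iPSCs against MEFs (edgeR adjusted p = 0.028), and its H3K27me3 differed by -0.53 (adjusted p = 0.065). Gtsf1, a factor of the piRNA pathway, was listed at 0 in both MEF and both pre-iPSC samples and at 6.64 and 6.79 FPKM in iPSCs, and Syce1, of the synaptonemal complex, was at 11.8 and 6.46 in iPSCs and at most 0.11 elsewhere. They rose by 2.95 and 3.29 between pre-iPSCs and iPSCs. 1700019N12Rik rose by 4.37. No mark was called in the start bins of Gtsf1, Syce1 and 1700019N12Rik.

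The promoters of Col1a2 and Tex19.1 show the sequence context of a gene that lost H3K4me3 and of one that gained it. These are the 200 bases before each start in mm9, on the plus strand of the gene, with CG in capitals.
Col1a2, chr6:4455496-4455695: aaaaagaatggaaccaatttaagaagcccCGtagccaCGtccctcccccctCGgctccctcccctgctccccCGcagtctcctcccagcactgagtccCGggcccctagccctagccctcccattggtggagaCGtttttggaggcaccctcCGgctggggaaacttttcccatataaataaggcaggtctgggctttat
Tex19.1, chr11:121007256-121007455: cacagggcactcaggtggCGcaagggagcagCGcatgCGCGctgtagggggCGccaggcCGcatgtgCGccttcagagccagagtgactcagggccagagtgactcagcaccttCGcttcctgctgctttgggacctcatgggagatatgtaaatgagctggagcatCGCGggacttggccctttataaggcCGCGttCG

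The Col1a2 promoter holds 7 CG dinucleotides (58.5% G and C) and that of Tex19.1 holds 13 (62%). Of the 200-base stretches before all autosomal gene starts, 91.9% hold at least 1 CG, 59.5% at least 7 and 40.6% at least 13.

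A list of imprinted genes was compiled from general knowledge with the clusters at the ends in mind, so its share in the ends is no result. Of its 47 autosomal genes, 12 start in pericentromeric ends (around Peg10 on chromosome 6 and Peg3 on chromosome 7) and 17 in distal ends (around Igf2 and Kcnq1 on chromosome 7). Of 8 pericentromeric genes tested, 1 rose and 3 fell in pre-iPSCs against MEFs and as many in iPSCs against MEFs. Of 14 distal genes tested, 3 rose and 3 fell, and 2 rose and 4 fell. Over all genes 16.4% and 25.9% were called in these comparisons. The median log2 difference in pre-iPSCs was -1.23 for the former and -0.07 for the latter, against -0.04 over all autosomal genes tested. Sgce, epsilon-sarcoglycan, fell by 2.16 and 1.64, and the paraoxonases Pon2 and Pon3 by 1.75 and 2.06 in pre-iPSCs, while Ppp1r9a, neurabin, rose by 1.16 and 1.68. H3K27me3 in the start bin of Ppp1r9a fell from 101 and 106 reads in MEFs to 46 and 45 in iPSCs (log2 -1.11), and that of Pon2 rose by 1.20. Peg10, Peg3, Casd1 and Tfpi2 were not called, and their replicates spread widely (Peg10 at 12.7 and 0.53 FPKM in pre-iPSCs).

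On distal chromosome 7, Tnfrsf23, a decoy receptor of TRAIL, had 30.1 and 25.6 FPKM for MEFs, 7.42 and 4.09 for pre-iPSCs and 2.93 and 5.66 for iPSCs, falls of 2.14 and 2.49. Its start bin gained H3K27me3, from 14 and 31 reads to 89 and 80 and to 109 and 96 (2.00 and 2.26). Osbpl5, an oxysterol-binding protein, fell by 2.49 and 3.22 with a gain of H3K27me3 of 0.79 and 1.32. Phlda2, which restrains growth of the placenta, had 1.03 and 0.26, 3.34 and 2.36, and 59.3 and 16.1 FPKM. It rose by 3.07 (limma adjusted p = 0.0082) between pre-iPSCs and iPSCs, and neither mark was called in its start bin. Tspan32, a tetraspanin, and Ano1, a chloride channel, rose by 2.60 and 1.75 in pre-iPSCs and fell by 2.39 and 2.71 in iPSCs. Slc22a18, a transporter, rose by 1.59 in pre-iPSCs, Cdkn1c, an inhibitor of the cell cycle, fell by 1.80 in iPSCs against MEFs, and Dhcr7, of cholesterol synthesis, rose by 1.71. H3K4me3 rose in the start bins of Kcnq1 (1.09), Tspan32 (1.04) and Slc22a18 (1.02) in pre-iPSCs. Ascl2, Cd81, Tssc4, Nap1l4 and Tnfrsf22 were not called, and Ins2, Th, Kcnq1, Calcr, Asb4, Zim1 and Usp29 were too low to be tested.

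The marker lists of the study have few members in the ends. Distal ends hold 8 of 80 ectodermal genes, of which Metrnl, a secreted factor, fell by 2.92 in pre-iPSCs and 3.31 in iPSCs and Emx2, a homeobox factor, fell by 2.27 between pre-iPSCs and iPSCs. H3K27me3 in the start bin of Emx2 rose in the same step, from 62 and 47 reads to 119 and 101 (1.00, edgeR adjusted p = 0.04). They also hold 4 of 41 mesodermal genes (2 tested, 0 called by limma) and 2 of 26 pluripotency genes (1 tested, Tex19.1), and pericentromeric ends hold 2 of 21 endodermal genes (0 tested). Of gene families, 31 pericentromeric and 74 distal olfactory and vomeronasal receptors of 1422 start in the ends, and 1 passed the filter on low values. Of 20 zinc finger genes tested next to the centromere, 1 fell in iPSCs against MEFs. Of 10 distal ones, 1 rose in pre-iPSCs against MEFs, 1 fell between pre-iPSCs and iPSCs and 2 fell in iPSCs against MEFs. Of 4 pericentromeric solute carriers tested, 1 rose in pre-iPSCs against MEFs, 1 fell between pre-iPSCs and iPSCs, and 1 rose and 1 fell in iPSCs against MEFs. Of 17 distal ones, 3 rose, 1 fell and 2 rose in the same order of comparisons. Of 7 pericentromeric and 7 distal ribosomal protein genes, 1 pericentromeric gene fell in iPSCs against MEFs. The shares called over all genes were 16.4%, 8.62% and 25.9% in the same order. None of the 55 defensin genes lies in an end as defined here.

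The marks at gene starts were counted beside the expression calls. Of the 54 distal genes that rose in pre-iPSCs, the start bin was higher for H3K4me3 in 15 (27.8%) and lower in 0, against 0.899% higher among distal genes with no call and 11.6% among interior genes that rose. It was lower for H3K27me3 in 19 (35.2%) and higher in 0, against 3.06% and 28.4% lower in the same groups. Of the 60 that fell, H3K4me3 was lower in 11 (18.3%) and higher in 0, against 2.34% lower among distal genes with no call and 18.9% among interior genes that fell. H3K27me3 was higher in 33 of them (55.0%) and lower in 1, against 18.2% and 47.0% higher in these groups. Of the 41 pericentromeric genes that fell, H3K4me3 was lower in 14 (34.1%) and H3K27me3 higher in 15 (36.6%). Among pericentromeric genes with no call these shares were 4.04% and 15.1%. Of the 38 pericentromeric genes that rose, H3K4me3 was higher in 3 (7.89%) and lower in 1, and H3K27me3 lower in 8 (21.1%) and higher in 1. In iPSCs against MEFs, H3K4me3 was higher in 10 of 67 distal genes that rose (14.9%) and in 15.3% of interior genes that rose. For iPSCs against MEFs, H3K27me3 was higher in 61 of 104 distal (58.7%) and 36 of 74 pericentromeric genes (48.6%) that fell, and in 48.7% of such interior genes, against 25.9% of distal and 22.0% of pericentromeric genes with no call. Genes whose start bin was not tested for the mark are left out of these shares, and genes that share a start bin share its counts.

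Islands were runs of windows above a fixed read count, not scaled to depth, H3 or GC content. They covered more of the distal ends, where read levels were higher as well, and do not separate enrichment from read level. H3K4me3 islands took 21.2% of distal windows and 16.4% of interior windows in MEF replicate 1, and 46.9% and 31.2% in pre-iPSC replicate 1. The share of gene starts in an H3K4me3 island was 69.7 to 82.9% in distal, 69.1 to 75.2% in pericentromeric and 66.7 to 73.01% in interior bins over the 6 libraries. For H3K27me3 it was 32.9 to 48.5%, 22.7 to 35.8% and 29.5 to 39.8%.

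Nucleosome positions were slightly tighter next to the centromere. Fuzziness, the SD of the reads of a call around its centre, was lower in pericentromeric than in interior calls by 0.60 ± 0.08 bp (SD, n = 6), in 6 of 6 H3 libraries (exact permutation p = 0.031), with 31.2 against 31.8 bp in MEF replicate 1. In distal calls it was higher by 0.61 ± 0.56 bp (SD, n = 6), in 6 of 6 libraries (exact permutation p = 0.031). Fuzziness depends on the number of reads in a call. Among calls of 5 to 10 reads the pericentromeric difference was -0.26 bp (6 of 6 libraries, exact permutation p = 0.031) and the distal difference 0.21 bp (5 of 6, exact permutation p = 0.062). Pre-iPSC replicate 1 was at 0.76 bp in the latter and the other 5 libraries between -0.0077 and 0.23 bp.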

How the data were processed

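The authors mapped reads with Bowtie 1.0.1 to mm9 (unique, at most 2 mismatches) and called nucleosomes per library with GeneTrack. The deposited files give each call's read count and its fuzziness, a score in bp. The deposited RNA tables hold FPKM from TopHat2 2.0.4 and Cufflinks 2.0.2, as one table for each replicate number. Here read counts were summed in 10-kb bins and divided by the unique reads that the study gives (RPKM). Levels were tested by exact sign-flip permutation over libraries, and counts with edgeR 4.0.16 (TMM, filterByExpr) in 1 fit over all bins, or over 5-Mb segments, with DESeq2 1.42.0 as an alternative. log2(FPKM + 1) of genes whose mean FPKM reached 0.5 was tested with limma 3.58.1, the table being a term of the fit. GC content, genes and sequences came from NCBIM37, which is mm9, with GENCODE genes. The scripts were tested on simulated data. Counting error alone is covered by read totals.

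Ends, bins and genes named are those with the 3 (genes 5) strongest rises and falls of each comparison and the 3 highest and lowest ends per antibody. All imprinted genes of a list and marker genes that passed are named as well. The 5 genes each way had to change in the same direction in both replicates, so that agreement was set by the choice. Members and lists were chosen with earlier results of these data known. Islands were runs of 1-kb windows with at least 6 reads, bridging gaps of 1 window with fewer reads, with at least 60 reads in all.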

Additional observations from a re-analysis of the deposited data

How the results depend on the processing

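Pericentromeric levels of H3, H3K4me3 and H3K27me3 kept their sign and their call under every alternative that used 6 libraries. With 5 libraries the exact permutation test cannot go below p = 0.062, and the levels then ranged from -0.20 to -0.14 for H3, -0.15 to -0.13 for H3K4me3 and -0.24 to -0.22 for H3K27me3 in pericentromeric bins, and from 0.16 to 0.32, 0.22 to 0.28 and 0.17 to 0.22 in distal bins. Distal H3K4me3 lost its call in the last 2 Mb (0.064) and within GC classes (-0.0040), as did distal H3K27me3 (0.0040 and 0.018). Distal H3 kept its call at 0.045 and 0.019, and distal H3K9me3 came to 0.028 and 0.024. Pericentromeric H3K9me3 was -0.087 by means, -0.146 from calls of at least 2 reads, -0.093 within GC classes and -0.089 without chromosome 8. Within chromosomes distal H3K27me3 came to 0.31, and by means pericentromeric H3K4me3 was -0.092. The cause of the other shifts was not tested.

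DESeq2 called fewer bins than edgeR. For pericentromeric and distal bins it called 80 and 199 (pre-iPSCs against MEFs), 0 and 0 (iPSCs against pre-iPSCs) and 211 and 524 (iPSCs against MEFs) for H3K4me3, and 139 and 563, 0 and 2, and 203 and 534 for H3K27me3. Of the 5-Mb ends it called 1 pericentromeric end for H3K4me3 and 1 for H3K27me3 in iPSCs against pre-iPSCs, 12 distal ends for H3K27me3 in pre-iPSCs against MEFs, and 2 pericentromeric and 4 distal ends in iPSCs against MEFs.

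Leaving out 1 library gave, for pericentromeric and distal bins, 0 to 6168 and 0 to 7666 (H3, pre-iPSCs against MEFs), 0 to 5017 and 0 to 6031 (iPSCs against pre-iPSCs) and 0 to 439 and 0 to 677 (iPSCs against MEFs). In the same order H3K4me3 gave 56 to 446 and 87 to 777, 0 to 121 and 0 to 60, and 265 to 851 and 554 to 1483, and H3K27me3 gave 168 to 866 and 583 to 1752, 0 to 15 and 0 to 21, and 295 to 822 and 634 to 1473. For 5-Mb ends H3 gave 0 to 13 and 0 to 19, then 0 to 12 and 0 to 13, H3K4me3 gave 4 to 11 and 8 to 15, then 0 to 1 and 0 to 1, and H3K27me3 gave 0 to 8 and 0 to 14, 0 to 1 and 0 to 2, and 0 to 6 and 0 to 11. Genes called ranged from 36 to 108 and 62 to 164, from 2 to 85 and 2 to 113, and from 42 to 148 and 54 to 212. Fuzziness ranged from -0.62 to -0.57 bp and from 0.41 to 0.70 bp.

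The replicate number as a block gave 14 and 7 bins for H3K4me3 and 7 distal bins for H3K27me3 in iPSCs against pre-iPSCs, and 0 and 0 ends for H3K27me3 in pre-iPSCs against MEFs, where the fit without it gave 4 and 7. The block moved no other count of calls by over 1.5 times. Deviations of same-numbered pre-iPSC and iPSC libraries from their group means correlated by 0.83 for H3, 0.16 for H3K4me3, 0.17 for H3K27me3 and 0.11 for RNA, and those of MEFs with either by -0.20 to 0.35. The iPSCs correspond to the pre-iPSC clones in the study's methods. Whether the same number marks a shared clone is not given in the sources used here. The cause of these correlations was not tested.

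H3K9me3 changes of at least 2-fold were found in 4.69% and 4.53% (pre-iPSCs against MEFs), 5.65% and 2.07% (iPSCs against pre-iPSCs) and 5.95% and 6.10% (iPSCs against MEFs) of pericentromeric and distal bins. These shares are not set beside all bins, so they do not show whether the ends differ. Without a filter on low FPKM, fewer genes were called: 45 pericentromeric and 67 distal genes in pre-iPSCs against MEFs and 26 in iPSCs against pre-iPSCs. The share of all genes called without the filter is not given. Cbr2 was at -2.60 in pre-iPSCs against MEFs without MEF replicate 1 and at 2.10 without replicate 2. Distal fuzziness was 0.21 bp among calls of 5 to 10 reads and 0.20 bp in the last 2 Mb. Leaving out a library left 1 in its group, which was assumed to vary like the other groups. The shares called over all bins and genes in those fits are not given. Among single bins, ends and genes named, 53, 26 and 80 results lost their call under an alternative, 23 results on genes gained one, 237, 118 and 1108 stayed on the same side of the threshold, and 1 on a gene changed sign.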
